A study of Gallus gallus with 10 samples.

Results

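IRF1, OASL, TAP2 and TAPBPL are 4 genes of interferon signaling and antigen presentation that were measured in the chick preoptic anterior hypothalamus (PO/AH). They were picked by their Ensembl identifiers, ENSGALG00000006785, ENSGALG00000013723, ENSGALG00000029381 and ENSGALG00000014428, out of 11324 genes in the count table. All 4 are named in the study's own list of genes higher after the mimic, which was drawn at a DESeq2 adjusted p up to 0.1. The contrast shown here had therefore already chosen them, and their levels and fold changes are given as a description without a test.

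The PO/AH was sequenced in 5 mimic libraries and 5 naïve libraries. The mimic chicks were Cobb broilers that got 2.5 μg of hsa-miR-200a-3p mimic, a synthetic stand-in for the mature microRNA, at 3 days after hatch and were taken 6 h later. The naïve chicks were Cobb broilers of the same age without an injection. The paper describes the mimic injection as intracranial. Its methods give the PO/AH as the site, while its results give the third ventricle. By the methods, the sequenced tissue was therefore itself the injected site. The mimic and this injection into the brain cannot be told apart in this comparison. No library from a chick injected with a control RNA was analysed here. Whether each library is 1 chick is not given in the sources, so the spread between libraries may in part be technical.

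The libraries were made by bulk MARS-seq from RNA purified from the dissected tissue. This method tags each RNA molecule at its 3′ end with a unique molecular identifier (UMI), so that a count stands for a molecule. The deposited UMI counts summed to between 3598695 and 4511597 per mimic library and to between 2104121 and 5503185 per naïve library, with naïve library 7 the smallest. The group means of these totals were not detectably different (p = 0.762, two-sided exact permutation test). Libraries are called by the numbers of their deposited columns. Levels are given as CPM, which are counts relative to library size after TMM scaling, and fold changes come from an edgeR fit over the 8585 genes that passed a filter on low counts. The fixed lists held 24 microglial or macrophage, 12 neuronal and 10 astrocytic genes as checks on the labelled tissue. Of these only RBFOX3, a nuclear protein of mature neurons, had an identifier here, and it was at 84.5 ± 23.3 CPM in mimic libraries and 116 ± 19.7 CPM in naïve libraries (SD, n = 5 each).

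Interferons are secreted signals of infection and tissue alarm that act through receptors and JAK-STAT proteins to switch on a broad antiviral program. Part of this program raises the machinery of MHC class I, in which peptides from the cytosol are carried into the endoplasmic reticulum, loaded onto class I molecules and shown at the cell surface to T cells. In the healthy brain these genes are mostly low, and microglia, astrocytes, endothelial cells and neurons can each express them under an immune challenge. In bulk tissue, more RNA per cell and more cells of a type that expresses a gene cannot be told apart.

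IRF1 is the transcription factor of the set. In mammals it binds interferon-responsive promoters and drives genes of class I presentation. IRF1 was at 11.8, 8.61, 13.6, 10.4 and 10.6 CPM in mimic libraries 2, 4, 6, 9 and 10, against 6.15, 7.89, 5.34, 5.97 and 8.11 CPM in naïve libraries 2, 3, 4, 6 and 7. The groups did not overlap, but narrowly, as the lowest mimic level was 1.06 times the highest naïve level. The means were 11.0 ± 1.84 CPM in mimic libraries and 6.69 ± 1.24 CPM in naïve libraries (SD, n = 5 each), a log2 fold change of 0.73 with a standard error of 0.20. The smallest counts were 33 in the mimic group and 16 in the naïve group, that of naïve library 7. The 95% Poisson interval of naïve library 7 ran from 4.64 to 13.2 CPM and so took in 4 of the 5 mimic levels.

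OASL belongs to the oligoadenylate synthetase family, whose members are induced by interferon and act against RNA viruses. OASL was at 16.3, 16.96, 9.52, 6.01 and 29.3 CPM in mimic libraries 2, 4, 6, 9 and 10, against 5.06, 6.66, 6.14, 4.62 and 4.06 CPM in naïve libraries 2, 3, 4, 6 and 7. The groups overlapped in this gene only, because mimic library 9 lay below naïve libraries 3 and 4, while the other 4 mimic libraries were above every naïve library. Mimic library 10 stood at the other end and held 113 of the 304 OASL counts of its group, or 37.2%. The 95% Poisson intervals of these libraries were 24.1 to 35.2 CPM for mimic library 10 and 3.92 to 8.80 CPM for mimic library 9, so counting error did not span the distance between them. The mean was 15.6 ± 8.92 CPM in mimic libraries and 5.31 ± 1.08 CPM in naïve libraries (SD, n = 5 each). The log2 fold change was 1.52 (standard error 0.36), and it was 1.17 without mimic library 10 and 1.73 without mimic library 9.

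TAP2 is a subunit of the TAP transporter, which with TAP1 moves cytosolic peptides into the endoplasmic reticulum. TAP2 was at 8.13, 4.96, 7.71, 4.39 and 10.6 CPM in mimic libraries 2, 4, 6, 9 and 10, against 1.63, 2.46, 1.87, 3.47 and 2.03 CPM in naïve libraries 2, 3, 4, 6 and 7. The groups did not overlap, and the lowest mimic level, in library 9, was 1.27 times the highest naïve level, in library 6. TAP2 had the largest fitted change of the set. It averaged 7.16 ± 2.54 CPM in mimic libraries and 2.29 ± 0.724 CPM in naïve libraries (SD, n = 5 each), a log2 fold change of 1.61 (standard error 0.31). The naïve levels rested on 4 to 18 counts per library, and the mimic levels on 19 to 41.

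TAPBPL is related to tapasin and in mammals edits the peptides that class I molecules carry. It was the least abundant of the set, at 5.88, 3.39, 2.72, 3.00 and 3.63 CPM in mimic libraries 2, 4, 6, 9 and 10, against 1.45, 1.93, 0.80, 0.963 and 2.03 CPM in naïve libraries 2, 3, 4, 6 and 7. Every mimic library was above every naïve library, with the lowest mimic level 1.34 times the highest naïve level. These levels came from 12 to 21 counts per mimic library and 3 to 11 counts per naïve library, and the Poisson intervals of mimic libraries 4, 6, 9 and 10 overlapped that of every naïve library. The mean was 3.73 ± 1.26 CPM in mimic libraries and 1.43 ± 0.553 CPM in naïve libraries (SD, n = 5 each). The log2 fold change was 1.38 with a standard error of 0.34.

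**Figure D1:**
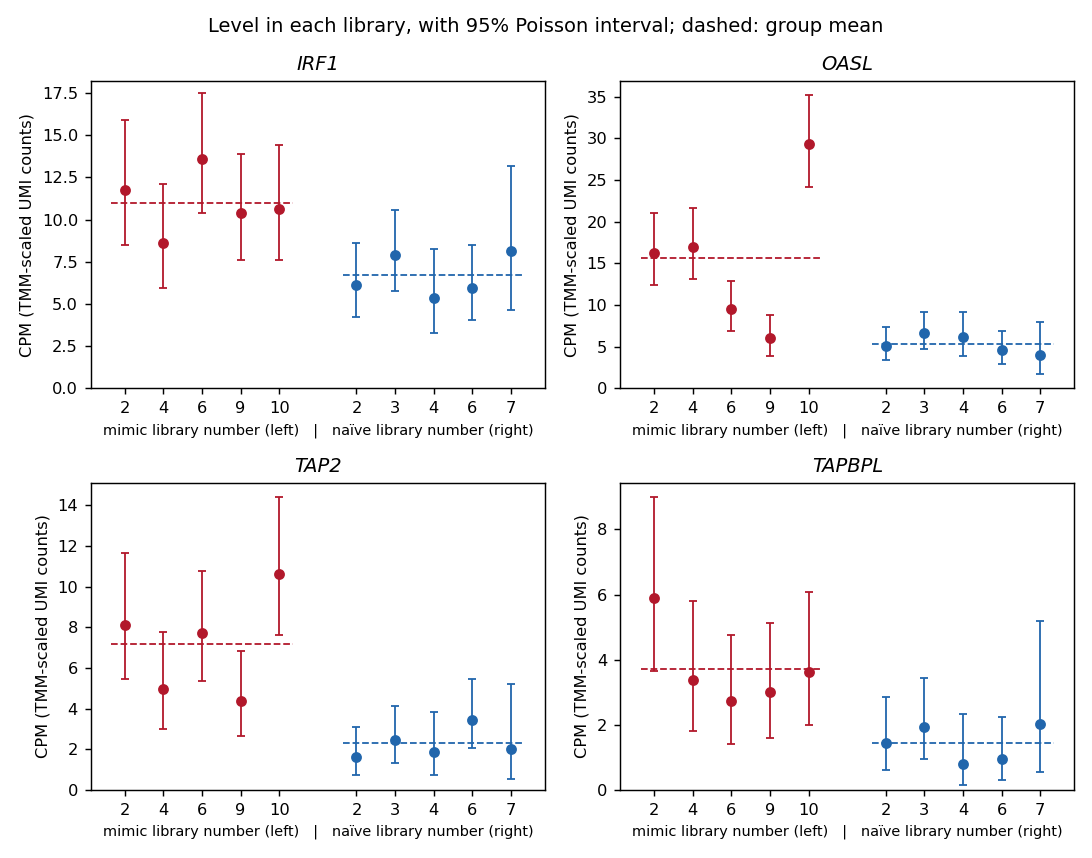
Level of IRF1, OASL, TAP2 and TAPBPL in CPM (y axis, from 0) in each of the 5 mimic libraries (red, left) and 5 naïve libraries (blue, right), with the 95% Poisson interval of each count as bars and the group mean as a dashed line. The groups are apart in IRF1, TAP2 and TAPBPL, and in OASL mimic library 9 at 6.01 CPM lies among the naïve libraries while mimic library 10 is at 29.3 CPM.

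Set side by side as fold changes, the 3 genes OASL, TAP2 and TAPBPL lay at 2.87, 3.04 and 2.60 times the naïve level, and IRF1 at 1.66 times. Ranked from the highest log2 fold change among the 8585 genes tested, TAP2 was at place 16, OASL at 19, TAPBPL at 21 and IRF1 at 118, where the median log2 fold change of all genes was −0.0042. By average level the set was low, at percentile 30.2 for OASL, 26.5 for IRF1, 13.8 for TAP2 and 1.9 for TAPBPL among the genes tested. A count at the 3′ end does not grow with the length of a transcript, but these percentiles compare RNA levels and not protein.

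**Figure D2:**
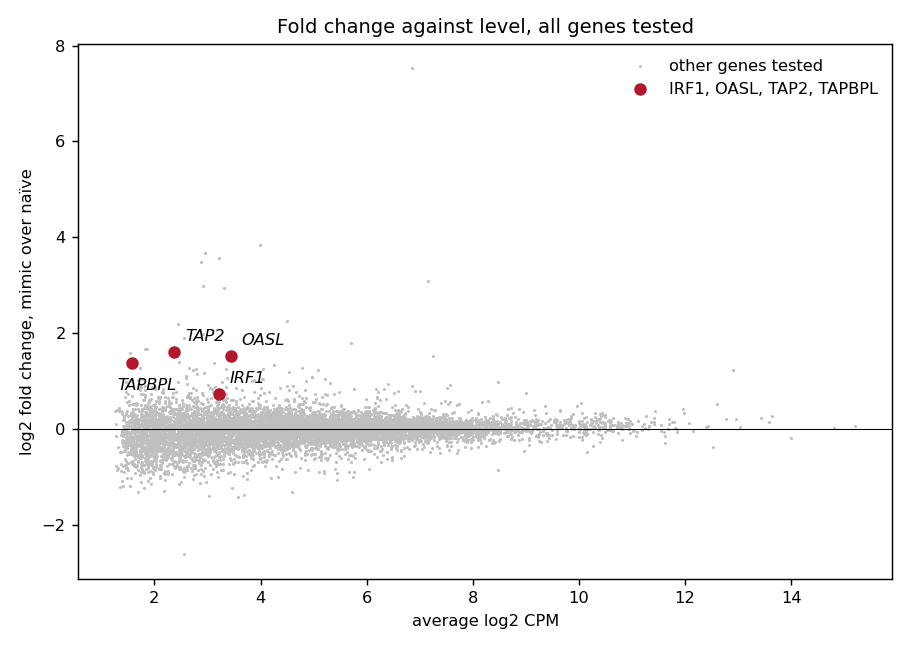
Log2 fold change of mimic over naïve (y axis) against average log2 CPM (x axis) for the 8585 genes tested (grey), with IRF1, OASL, TAP2 and TAPBPL in red. The 4 genes are on the upper side of the cloud at low levels, with log2 fold changes of 0.73, 1.52, 1.61 and 1.38.

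Calling a gene in edgeR required 3 things, an adjusted p up to 0.05, at least 1.5-fold change and 30 counts in some library. This took 0 of the 4 genes, and it took 0.140% of all genes tested as higher after the mimic. DESeq2 at the settings in the study's methods took OASL and TAP2, where it took 0.419% of all genes as higher. The study's list of higher genes was drawn at a looser adjusted p, up to 0.1, so these calls do not test that list. At an unadjusted edgeR p of 0.05 all 4 genes were higher, as were 3.90% of the genes tested. With the adjusted cutoffs, limma-voom called 0 of the 4 genes and 0.128% of all genes as higher. The groups did not overlap with higher mimic levels in 3 of the 4 genes and in 1.09% of all genes tested. Since the contrast chose the 4 genes, nothing is read from these counts. TAPBPL could not have been called at any p, because its highest count was 21. When 1 library was left out, edgeR called OASL and TAP2 without mimic library 9 (0.174% of all genes called higher). It called 0 of the 4 genes in each of the other 9 fits, where 0.0697% to 0.207% of all genes were called higher. Mimic library 9 had the lowest OASL and TAP2 levels of its group, so nothing is read from those calls either.

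The filter on low counts asked for 2.34 CPM before TMM scaling in at least 5 libraries. All 10 libraries met that level for IRF1 and OASL. For TAP2 all 5 mimic libraries and 2 naïve libraries met it, and for TAPBPL all 5 mimic libraries and 0 naïve libraries. TAP2 and TAPBPL were therefore tested only through the group in which they are higher.

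**Figure D3:**
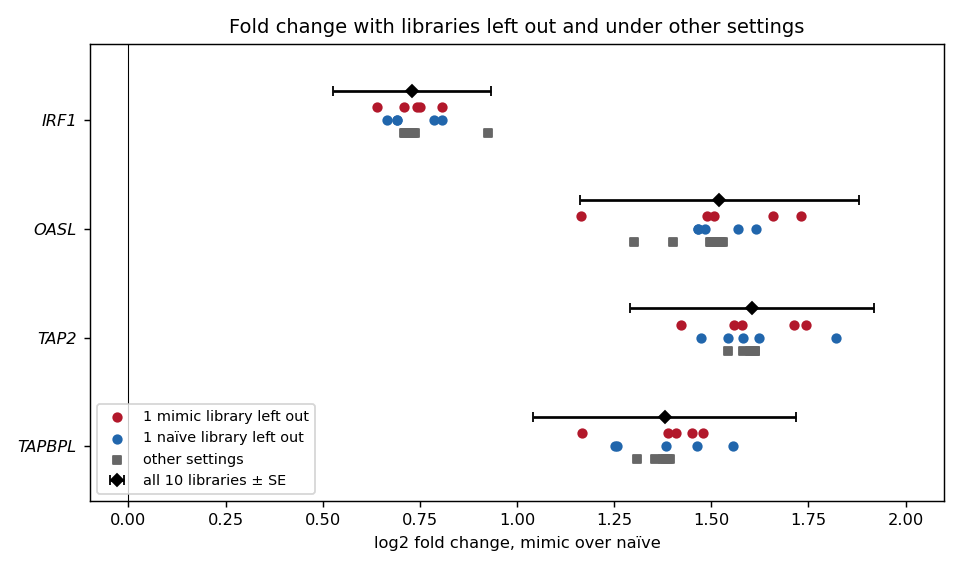
Log2 fold change of mimic over naïve (x axis) for each of the 4 genes, with all 10 libraries and its standard error (black), with 1 mimic library left out (red), with 1 naïve library left out (blue) and under other settings (grey). Every value is above 0, and OASL moves most, between 1.17 without mimic library 10 and 1.73 without mimic library 9. The genes were chosen as higher in these same libraries, so the sign is a description only.

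Within the groups the genes spread unequally. The spread was measured as the chi-square of the counts about what library size alone would give, per degree of freedom, which is near 1 when counting error is the only source. In naïve libraries this index was 0.881 for IRF1, 0.842 for OASL, 1.12 for TAP2 and 0.845 for TAPBPL. These values are near 1, but with only 31 to 146 naïve counts per gene the index can miss spread between libraries. In mimic libraries the index was 21.2 for OASL, 3.61 for TAP2, 1.62 for TAPBPL and 1.26 for IRF1. The same spread gives a higher index at higher counts, and the mimic group held 304 counts for OASL and 73 for TAPBPL. OASL thus had a coefficient of variation of 57.2% in mimic libraries, where counting error would give 12.8%, and of 20.3% in naïve libraries, where counting error would give 20.3%. The coefficient of biological variation that edgeR fitted was 36.7% for OASL, 27.5% for TAP2, 23.2% for TAPBPL and 17.9% for IRF1, against 21.2% in common over all genes tested. The trend at each gene's own average level was 26.2% for OASL, 28.4% for TAP2, 28.5% for TAPBPL and 26.8% for IRF1, so that OASL lay above it and the other 3 genes below it.

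The libraries did not keep 1 order across the genes. Among mimic libraries, library 10 was highest for OASL and TAP2, library 6 for IRF1 and library 2 for TAPBPL, while library 9 was lowest for OASL and TAP2, library 4 for IRF1 and library 6 for TAPBPL. Among naïve libraries, library 7 was highest for IRF1 and TAPBPL and lowest for OASL. After each group's mean was subtracted, the 6 pairs had Pearson r over 10 libraries of 0.52 for OASL with TAP2, 0.52 for IRF1 with TAPBPL, 0.30 for IRF1 with TAP2, 0.24 for OASL with TAPBPL, 0.11 for TAP2 with TAPBPL and −0.20 for IRF1 with OASL. These are descriptions over few libraries with low counts. The value for OASL with TAP2 rested on mimic libraries 9 and 10, and without the 2 libraries farthest from the median of OASL it was −0.27. For IRF1 with TAPBPL the value was 0.77 without the 2 libraries farthest from the median of IRF1.

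**Figure D4:**
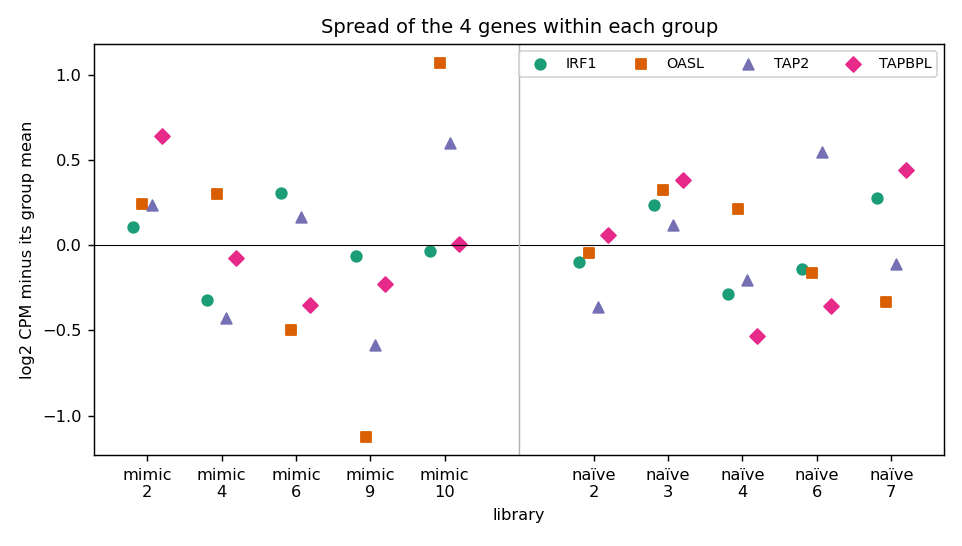
Log2 CPM minus its group mean (y axis) for IRF1, OASL, TAP2 and TAPBPL in each of the 10 libraries (x axis, mimic left of naïve). OASL has the widest spread, at 1.08 in mimic library 10 and −1.12 in mimic library 9, and no library is the highest of its group in all 4 genes.

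The genes whose pattern was most like each of the 4 were sought by the same group-centred r among the 120 other tested genes with a symbol. Those symbols come only from the study's supplementary tables, of genes it found changed in this contrast or differentially methylated in sperm. The pool was thus chosen in part by this contrast, and the kinds of genes found in it are not read as a result. For IRF1 they were KIF23, a motor protein of cell division (r = 0.88), TGM4, a transglutaminase (r = 0.85), and AVD, which encodes avidin (r = 0.78). For OASL they were HPGDS, a prostaglandin D synthase (r = 0.64), PELI1, a ubiquitin ligase of Toll-like receptor signaling (r = 0.60), and RNFT1 (r = 0.59). Single libraries moved the values for OASL. With HPGDS, r was −0.23 without the 2 libraries farthest from the median of OASL and 0.28 without mimic library 10, and it was 0.83 without naïve library 7. With PELI1, r was 0.03 without mimic library 9 and 0.88 without mimic library 10. For TAP2 they were KRT20, a keratin (r = 0.85), MFSD2A, a lipid transporter of the blood-brain barrier (r = 0.80), and SOCS3, an inhibitor of JAK-STAT signaling (r = 0.67). For TAPBPL they were NFIX, a transcription factor (r = 0.86), GNG11, a G protein subunit (r = 0.81), and SIX4, a homeobox protein (r = 0.72, and 0.88 without naïve library 3). These values hold within the groups, and with the group means left in r was −0.475 for TAP2 with KRT20, −0.221 for TAP2 with MFSD2A, −0.109 for TAPBPL with NFIX and −0.313 for TAPBPL with GNG11. Each was taken as the highest of many over 10 libraries that share their depth, so no test applies, and genes without a symbol reached as high as 0.93, 0.90, 0.93 and 0.94 for IRF1, OASL, TAP2 and TAPBPL. Among all genes tested, KIF23 was at place 7 by r for IRF1, KRT20 at 10 for TAP2 and NFIX at 14 for TAPBPL. The partners of OASL were only at places 145, 218 and 242, SOCS3 was at 193 for TAP2 and SIX4 at 211 for TAPBPL.

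Other genes of the pathway were followed only where they were on a fixed list and a source names their identifier. Lists of interferon ligands, interferon signaling, interferon-stimulated genes, nucleic acid sensing and presentation by MHC class I and class II were drawn up by symbol, with lists of cell type markers. Of 300 symbols in all lists only 6 had an identifier, and 4 of these passed the filter. IFITM5 and PLSCR1 were on the list of interferon-stimulated genes, and the endoplasmic reticulum chaperone HSPA5 on the class I list. Whether IFITM5 responds to interferon was not tested. All of these came from the study's table of genes higher after the mimic, so they are not independent evidence of a direction. None of the ligands, receptors, JAK or STAT proteins of the lists, and neither TAP1, tapasin, B2M nor a class I heavy chain, could be identified by name. The paper names STAT3, STAT6 and the receptor subunit IL2RG among genes higher after the mimic, and these were not followed here. SOCS3 had an identifier but was not on a fixed list, and it was looked at only for its pattern.

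PLSCR1, a phospholipid scramblase induced by interferon, was at 200 ± 23.4 CPM in mimic libraries and 137 ± 19.1 CPM in naïve libraries (SD, n = 5 each). In edgeR the log2 fold change was 0.54 ± 0.12 (SE) with an adjusted p of 0.111, and all 5 mimic libraries were above the highest naïve library. Such a separation held in 1.09% of all genes tested. HSPA5 was at 373 ± 55.2 CPM in mimic libraries and 249 ± 34.5 CPM in naïve libraries (SD, n = 5 each), or 0.59 ± 0.12 (SE) as a log2 fold change with an edgeR adjusted p of 0.0904, also without overlap. IFITM5, of the interferon-induced transmembrane family, was at 8.32 ± 2.97 CPM in mimic libraries and 3.79 ± 2.48 CPM in naïve libraries (SD, n = 5 each). Its groups overlapped (log2 fold change 1.26, adjusted p = 0.394 from edgeR). The overlap was with naïve library 7 only, at 8.11 CPM. The next naïve level was 3.66 CPM, and the lowest mimic level was 4.39 CPM. Without naïve library 7 the log2 fold change was 1.60, and IFITM5 was still not called (edgeR adjusted p = 0.0696). For RBFOX3 the log2 fold change was −0.45 (edgeR, adjusted p = 0.612). FOLR1, a choroid plexus marker, and SLC6A13, a meningeal marker, both from the study's table of genes lower after the mimic, were below the filter. FOLR1 ran from 0 to 0.280 CPM in mimic libraries and from 0.175 to 26.9 CPM in naïve libraries, and SLC6A13 from 0 to 0.261 CPM in mimic libraries and from 0 to 13.2 CPM in naïve libraries. Of the 4 list genes tested, edgeR called 0, against 0.140% of all genes as higher and 0.0233% as lower, and DESeq2 at the study's settings called HSPA5 (0.419% of all genes called higher). At an unadjusted p of 0.05 with the same fold and count minimums, IFITM5 and HSPA5 passed in edgeR, as did 1.28% of all genes as higher. Both were in the study's table of higher genes, so nothing is read from these counts.

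The summed level of 6 genes of microglia and of the first complement component was higher in every mimic library than in any naïve library. None of the 24 genes on the fixed list of microglia and macrophages had an identifier, and these 6 were not on it. The 6 were added after their values were known. Of the 6, 5 are in the study's table of genes higher after the mimic and TREM2 in its table of lower genes, so the same contrast had chosen them and the separation of their sum is a description only. They are SPI1, a transcription factor of macrophage development, P2RY13, a purine receptor, TREM2, a lipid receptor, and the C1q chains C1QA, C1QB and C1QC. Their summed level ran from 158 to 222 CPM in mimic libraries and from 80.5 to 117 CPM in naïve libraries, and none of the 6 was at 0 in any library. The median was 175 CPM in mimic libraries and 108 CPM in naïve libraries, and the 3 C1q chains made up 75.2% of the sum in mimic libraries and 64.0% in naïve libraries. In edgeR, C1QB (log2 fold change 1.24, adjusted p = 0.00346) and C1QC (1.04, adjusted p = 0.0460) were called, as were 0.140% of all genes as higher. C1QC lost its call when any of mimic libraries 2, 6, 9 and 10 or naïve libraries 2, 3, 4 and 6 was left out, with edgeR adjusted p from 0.0558 to 0.193. TREM2 had −0.85 (adjusted p = 0.320 from edgeR). DESeq2 at the study's settings called C1QB, C1QC and also SPI1, P2RY13 and C1QA (adjusted p = 0.0105, 0.000896 and 0.000896). It called 0.419% of all genes as higher, and it did not call TREM2 (adjusted p = 0.0803). Since the contrast chose these genes, nothing is read from these calls. Mimic libraries 6 and 2 had the highest sums, 222 and 205 CPM, and were also the highest for IRF1. Mimic library 9, with the lowest sum of its group at 158 CPM, was lowest for OASL and TAP2. Mimic library 4, at 159 CPM, was lowest for IRF1. For TAPBPL, mimic library 2 was highest and mimic library 6 lowest. Mimic library 10, the highest for OASL and TAP2, had 175 CPM. The naïve libraries with the highest sums were 4 at 117 CPM and 7 at 116 CPM. IRF1 and TAPBPL were lowest in naïve library 4 and highest in naïve library 7. Whether this sum follows the number of any cell type was not tested, nor was the part of such cells in the levels of the 4 genes.

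The place of the 4 genes is known here only by their neighbors in the RefSeq annotation of another assembly, GRCg7b. TAP2 lies there between TAP1 and the class I gene BF2, in the compact chicken MHC, IRF1 between SLC22A5 and IL5, OASL between SEMA3B and LSMEM2, and TAPBPL between FBXO40 and VAMP1. TAPBPL overlaps VAMP1 there, and OASL overlaps LOC101747452. The sources used here do not state whether strand was used in counting, so reads of these overlapping genes may not be told apart and the levels of TAPBPL and OASL are less certain in that respect.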

How the data were processed

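The authors made libraries from 15 ng of RNA by bulk MARS-seq and sequenced them with 100 bp reads. Per the labels and the study's methods reads were trimmed (cutadapt) and aligned by STAR to the 3′ ends of genes in galGal5, then collapsed by UMI within a gene, counted with HTSeq and corrected for saturation, which adds molecules that were not seen directly. Tool versions were not given in the sources used here. From the file itself the deposited UMI counts per gene were used, while 10 other deposited columns of normalized values were not. The deposited column numbers do not follow the sample labels, so columns were placed by the condition in their name.

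The main test was the two-sided quasi-likelihood test of edgeR 4.0.16, with its robust option and TMM scaling, run in R 4.3.3 on the genes kept by filterByExpr (minimum count 10), and p-values were adjusted by Benjamini-Hochberg over all of these. Other tools were DESeq2 1.42.0 and limma 3.58.1. The standard errors of edgeR log2 fold changes were back-calculated from the quasi-likelihood test. Each is the absolute log2 fold change over the square root of the F statistic. Patterns were compared as log2 CPM (prior count 2). Poisson intervals at 95% are exact and cover counting error only. The fit was also run on counts simulated from its own model and fitted variation, with 200 changed genes. That run cannot test whether the model holds in these libraries. The 4 genes, the lists and the tests were chosen with earlier results of these data known. The genes to name were the 4, every called gene and up to 4 with the smallest p of each list, and the 3 most alike in pattern to each. Gene names came from the study's supplementary tables, which pair 157 identifiers with symbols, 121 of them tested. Alternatives were RLE and upper-quartile factors, other filters, DESeq2 at the study's settings, limma-voom, edgeR without its robust option and each library left out. Thinning every library to the smallest total and the 6 microglial and complement genes were added after seeing the data. Promoter motifs were not searched, and no sequence was used here.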

Additional observations from a re-analysis of the deposited data

Results flagged for a closer look

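In 28 groups of 5 libraries, for 14 genes in 2 conditions, 3 had a library far from the others on Dixon's criterion, which chance meets in about 1 group of 20. TAPBPL was at 5.88 CPM in mimic library 2, where the next mimic library was at 3.63 CPM. IFITM5 was at 8.11 CPM in naïve library 7, the smallest library, where the next naïve library was at 3.66 CPM. HSPA5 was at 469 CPM in mimic library 9, where the next mimic library was at 365 CPM. The causes were not tested.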

How the results depend on the processing

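IRF1, OASL, TAP2 and TAPBPL were chosen as higher in these same libraries, so the sign of a refit is a description only. Under every alternative that gave a value, their log2 fold changes stayed positive and moved by less than 1 SD of the libraries (0.62 for OASL). With 1 library left out they lay between 0.64 and 0.81 for IRF1, 1.17 and 1.73 for OASL, 1.42 and 1.82 for TAP2 and 1.17 and 1.56 for TAPBPL, and thinning gave 0.92 for IRF1. TAP2 and TAPBPL dropped out with a minimum count of 30 and with thinning, so neither gave a value there. Genes called higher numbered 12. They numbered 7 with a minimum count of 30, 36 with DESeq2, 27 at an adjusted p of 0.1, 6 with thinning and 6 to 18 with 1 library left out, the 6 without naïve library 2, and 7 without naïve library 4 or 6. Genes called lower numbered 2, against 5 with DESeq2 and 1 with thinning. List members called higher numbered 0, against 1 with DESeq2 and 2 at an unadjusted p of 0.05. Of 179 values for the other named genes under alternatives, 0 changed sign, 11 lost the call and 7 gained it. All 11 losses were in C1QC. Of 144 values of r between a gene and its 3 most alike, 5 moved by more than their standard error, and the genes and libraries concerned are named above with those values. No paired analysis was possible because column numbers in the deposited table differ from those of the labels, and the motif alternative was not run. Low counts, 3 to 18 per naïve library, limit the precision for TAP2 and TAPBPL.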
